A study of Rattus norvegicus with 7 samples.

Results

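Cytochrome P450 genes were taken from the RNA-seq gene table of rat colon crypts as the symbols made of Cyp, a family number, a subfamily letter and a gene number. Cyp24a1, a gene of vitamin D breakdown, and Cyp51, a gene of cholesterol synthesis, were left out. This gave 68 genes of 15 P450 families among the 16468 genes kept. The distal library came from crypts of the distal colon, and the proximal library from crypts of the proximal colon. Both regions were taken from outbred Sprague Dawley rats aged 14 weeks, and each library pooled material of 7 animals, with no treatment named in the labels. Replicates within a region were not made, so each difference compares these 2 libraries and has no replicate check. The series also holds 5 chromatin immunoprecipitation libraries, which were not analysed here.

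P450 enzymes are haem proteins that insert an oxygen atom into small lipophilic molecules, with electrons handed on by a reductase. Families 1 to 3 mainly handle drugs, plant compounds and other foreign chemicals. Family 4 mainly hydroxylates fatty acids and eicosanoids, and the higher family numbers mostly make or clear sterols, steroids, bile acids and retinoic acid. Gut epithelium meets many foreign compounds from the diet and gut bacteria before the liver does.

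P450 expression in the crypts was concentrated in few genes, and different genes stood first at the 2 ends of the colon. Values are FPKM, fragment numbers divided by transcript length and by sequencing depth, so levels can be set side by side between genes. Cyp3a9, of the drug- and steroid-oxidising subfamily 3A, was the highest in distal crypts, at 82.1 FPKM in distal crypts and 43.4 FPKM in proximal crypts. Cyp4f1, of the fatty acid and leukotriene hydroxylases, was the highest in proximal crypts, at 44.3 FPKM in distal crypts and 183.8 FPKM in proximal crypts. Of the 68 genes, 26 reached at least 1 FPKM in 1 library and are called measured here. The remaining 42 were below that in both libraries, and 26 of these were listed at 0 in both.

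**Figure D1:**
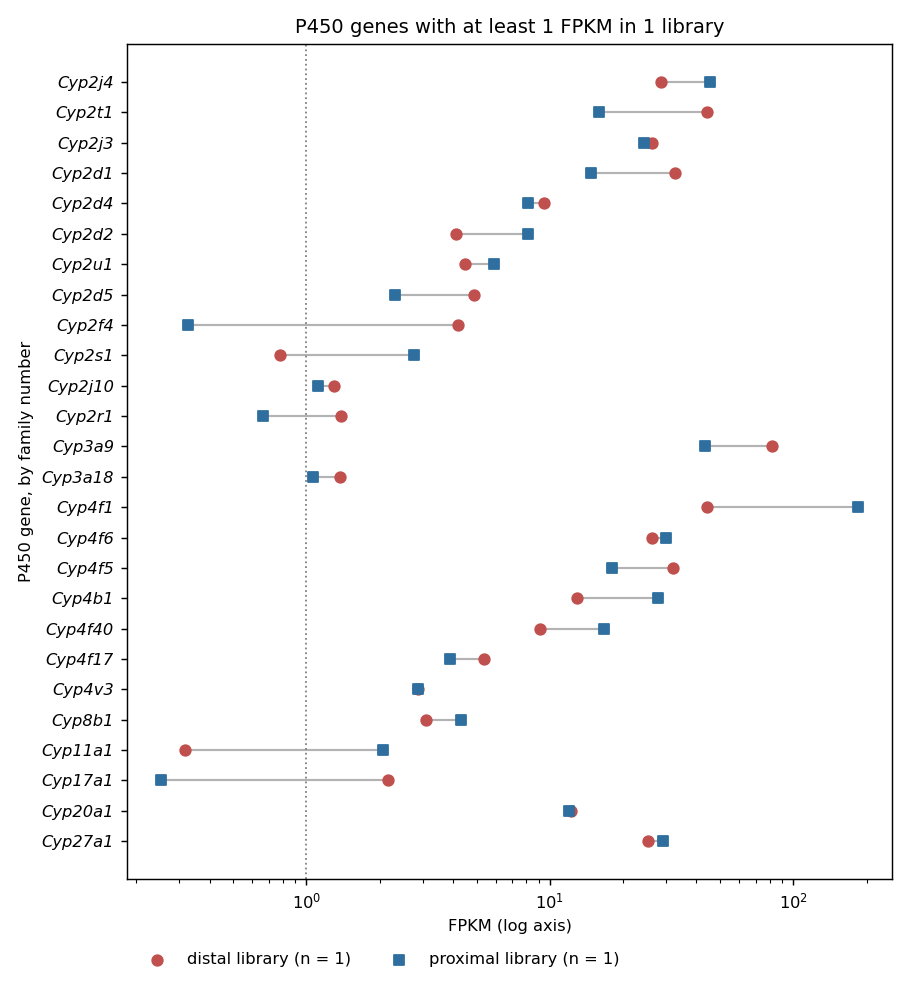
FPKM of the 26 measured P450 genes in distal crypts (red circles) and the proximal library (blue squares) on a log axis, ordered by family number. Each point is 1 pooled library, the dotted line marks 1 FPKM, and Cyp4f1 in proximal crypts is the highest point at 183.8 FPKM.

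Of the 26 measured genes, 4 were higher by 2-fold or more in distal crypts, 4 were higher by 2-fold or more in proximal crypts and 18 were less than 2-fold apart. These counts rest on log2((distal FPKM + 1)/(proximal FPKM + 1)), where the added 1 shrinks differences between low values, and they cover 30.8% of the measured P450 genes. Among all 9847 measured genes, 7.62% were at least 2-fold apart, 3.71% with the distal and 3.91% with the proximal library higher. The higher value lay between 1 and 5 FPKM for 10 of the P450 genes, and 4 of these were 2-fold apart, against 11.6% of all genes at this level. From 20 FPKM upwards it was 4 of 10 P450 genes, against 6.71% of all genes, and between 5 and 20 FPKM it was 0 of 6, against 6.55%. The 4 between 1 and 5 FPKM were Cyp2f4, Cyp17a1, Cyp11a1 and Cyp2s1. Each was below 1 FPKM in its lower library and so passed the minimum only through the library where it was higher. The count at this level is therefore a description and no support for a difference. The median log2 ratio of the measured P450 genes was 0.07, beside 0.09 for all measured genes. Both medians turned negative, to -0.09 for the P450 genes and -0.06 for all measured genes, when the distal values were scaled down by 0.17 on the log2 scale to equal the upper quartile of the proximal library.

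The authors' deposited table called 6 of the 26 genes, or 23.1%, beside 5.44% of all measured genes. Among them, 4 were higher in distal crypts (Cyp2f4, Cyp17a1, Cyp2d1 and Cyp3a9), a direction called for 2.76% of all measured genes. The other 2, Cyp4f1 and Cyp11a1, were higher in proximal crypts, a direction called for 2.68%. The standard errors quoted below are those that the test statistic of that table implies. They describe the model behind the table and carry no variation between rats.

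**Figure D2:**
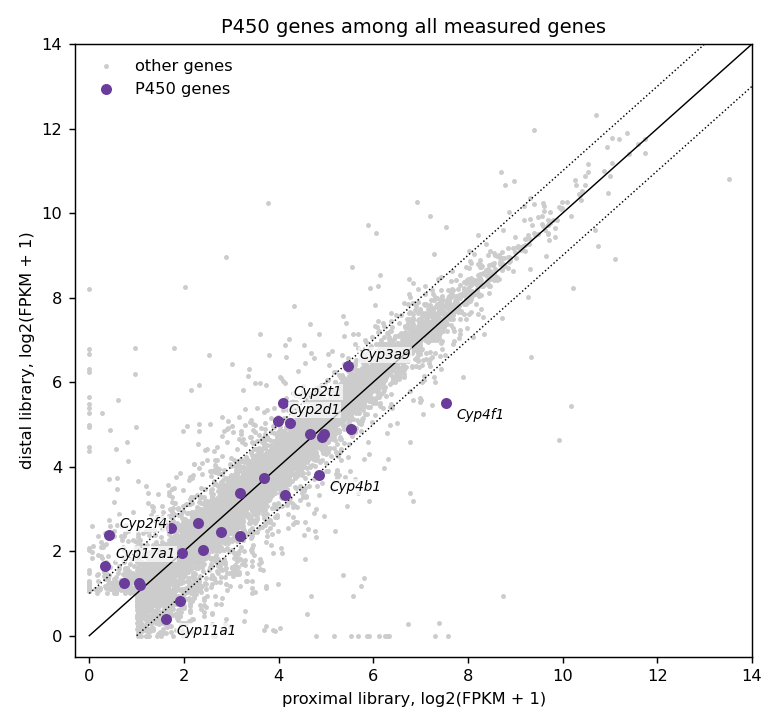
Log2(FPKM + 1) of the distal library (vertical axis) against the proximal library (horizontal axis) for all 9847 measured genes, with the 26 P450 genes in purple. The solid line marks equal values and the dotted lines a 2-fold difference on this scale, and 8 P450 genes lie on or beyond the dotted lines.

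Both libraries were described with marker lists of cell types, which do not by themselves set colon apart from small intestine. All 10 colonocyte markers were above 1 FPKM in both libraries, such as Cdx2 at 369.6 FPKM in distal crypts and 342.4 FPKM in proximal crypts. Of these 10, Car1 was 6.59-fold higher in proximal crypts and Aqp8 was 9.39-fold higher in distal crypts, and 8 were less than 2-fold apart. Of 6 markers of small intestine absorptive cells, 2 reached 1 FPKM. Fabp2 stood at 46.7 FPKM in distal crypts and 64.8 FPKM in proximal crypts, and Rbp2 at 6.49 FPKM in distal crypts and 3.32 FPKM in proximal crypts. None of 6 hepatocyte markers reached 1 FPKM, their sum was 0.0380 FPKM in distal crypts and 0.939 FPKM in proximal crypts, and Alb, Apoh and Fgb were listed at 0 in both. The libraries differed in some markers of other cell types. Summed lymphocyte markers stood at 11.7 FPKM in distal crypts and 40.2 FPKM in proximal crypts, with 4 of 7 measured members higher by 2-fold or more in proximal crypts. Mast cell markers summed to 32.5 and macrophage markers to 5.42 FPKM in distal crypts, against 81.6 and 15.3 FPKM in proximal crypts. Of the measured ones, 2 of 4 mast cell and 1 of 2 macrophage markers were higher by 2-fold or more in proximal crypts. That macrophage marker was Lyz2, whose locus is shared, at 2.50 FPKM in distal crypts and 11.1 FPKM in proximal crypts. Enteroendocrine markers summed to 167.9 FPKM in distal crypts and 302.0 FPKM in proximal crypts, with 3 of 5 higher by 2-fold or more in proximal crypts and 1, Pyy, in distal crypts. The sum of the goblet cell markers went the other way, at 7362 FPKM in distal crypts and 3219 FPKM in proximal crypts. Of these 6 markers, 3 were higher by 2-fold or more in distal crypts and 3 were less than 2-fold apart. The part of these cell types in the P450 differences was not tested. In such bulk samples, fewer cells of a type and less RNA per cell cannot be told apart.

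By family number, the sum over family 4 was lower in distal crypts, at 133.7 FPKM over 14 genes, against 283.7 FPKM in proximal crypts (2.12-fold). Cyp4f1 carried most of this: without it the other 13 genes summed to 89.4 FPKM in distal crypts and 99.9 FPKM in proximal crypts (1.12-fold higher in proximal crypts). Of the 7 measured genes of family 4, 5 were less than 2-fold apart. The sums over family 2 and family 3 were higher in distal crypts. Family 2 summed to 163.3 FPKM over 31 genes in distal crypts and 130.6 FPKM in proximal crypts (1.25-fold), and family 3 to 83.5 FPKM over 4 genes in distal crypts and 44.5 FPKM in proximal crypts (1.88-fold). The share of family 4 in the P450 total was 31.5% in distal crypts and 55.9% in proximal crypts. Over all 68 genes the sum was 424.1 FPKM in distal crypts and 507.6 FPKM in proximal crypts. This order rested on Cyp4f1, left out here after its values were seen: without it the sum was 379.9 FPKM in distal crypts and 323.8 FPKM in proximal crypts. The log2 ratio of the family 2 sums shrank to 0.05 without genes that share a locus, among them Cyp2t1. The sums over families 2, 3 and 4 kept their direction when distal values were rescaled for a median log2 ratio of 0 or for equal upper quartiles.

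**Figure D3:**
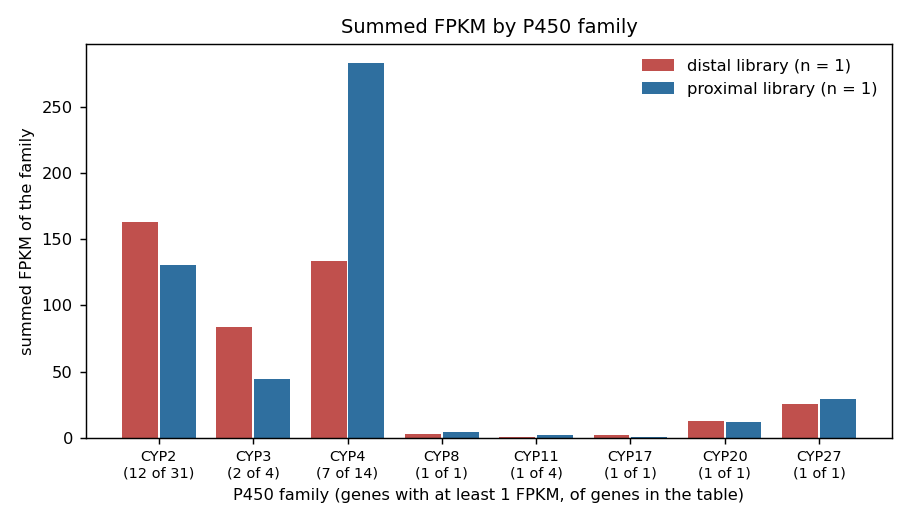
Summed FPKM of the 8 P450 families with a measured gene, in distal crypts (red, left) and the proximal library (blue, right), each from 1 pooled library. Family 4 stands at 133.7 FPKM in distal crypts and 283.7 FPKM in proximal crypts, while families 2 and 3 are higher in distal crypts.

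Among the fatty acid hydroxylases of family 4, Cyp4f1 was the furthest apart. At 44.3 FPKM in distal crypts and 183.8 FPKM in proximal crypts it was 4.15-fold higher in proximal crypts and held 10.4% of the P450 total in distal crypts and 36.2% in proximal crypts. For Cyp4f1 the authors' deposited table listed -2.05 as log2 of distal over proximal, with 0.31 as the implied standard error and 9.87e-09 as the q. Cyp4b1, which hydroxylates fatty acids and activates some plant toxins, stood at 12.97 FPKM in distal crypts and 27.7 FPKM in proximal crypts (2.14-fold higher in proximal crypts), with a q of 0.0572 in the authors' deposited table, so it was not called there.

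The other genes of subfamily 4F, which hydroxylate leukotriene B4 and arachidonic acid in the rat, were less far apart than Cyp4f1. Cyp4f40 stood at 9.10 FPKM in distal crypts and 16.6 FPKM in proximal crypts. Cyp4f6 was at 26.3 and Cyp4f17 at 5.36 FPKM in distal crypts, against 29.9 and 3.90 FPKM in proximal crypts. Cyp4f5 lay on the other side, at 31.95 FPKM in distal crypts and 18.0 FPKM in proximal crypts (1.77-fold), with an implied 95% interval of 1.15 to 2.73 in fold. All 4 were less than 2-fold apart and none was called in the authors' deposited table. Cyp4f4 (0.194 FPKM in distal crypts and 0.456 FPKM in proximal crypts) and Cyp4f18 (0.0851 FPKM in distal crypts and 0.0673 FPKM in proximal crypts) were below 1 FPKM. Over all 7 genes, subfamily 4F summed to 117.2 FPKM in distal crypts and 252.8 FPKM in proximal crypts. This difference rested on Cyp4f1: the other 6 genes summed to 73.0 FPKM in distal crypts and 69.0 FPKM in proximal crypts.

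These 4F genes other than Cyp4f18 lie within 541 kb of chromosome 7, from 13095557 to 13636290 in the rn4 build that the table uses. Cyp4f1 (13589662 to 13600856) and Cyp4f6 (13609104 to 13636290) are only 8.25 kb apart there, and they differed 4.15-fold and 1.14-fold between the libraries. Zfp799 and Zfp709l2, the 2 measured genes of the interval that are not P450 genes, had log2 ratios of -0.21 and -0.14. The promoter windows of this pair, from RefSeq on GRCr8 (250 bases before to 50 after the start of the gene), are shown because these close neighbours differed unequally between the libraries. Capitals mark GCGTG, the core bound by the AHR and ARNT pair, in either orientation.
Cyp4f1, chr7:12672504-12672803, minus strand: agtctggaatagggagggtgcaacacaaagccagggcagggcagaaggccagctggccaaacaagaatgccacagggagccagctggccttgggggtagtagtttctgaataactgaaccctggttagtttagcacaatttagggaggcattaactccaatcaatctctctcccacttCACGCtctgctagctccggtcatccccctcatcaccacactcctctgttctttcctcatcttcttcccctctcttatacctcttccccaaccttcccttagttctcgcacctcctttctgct
Cyp4f6, chr7:12708329-12708628, minus strand: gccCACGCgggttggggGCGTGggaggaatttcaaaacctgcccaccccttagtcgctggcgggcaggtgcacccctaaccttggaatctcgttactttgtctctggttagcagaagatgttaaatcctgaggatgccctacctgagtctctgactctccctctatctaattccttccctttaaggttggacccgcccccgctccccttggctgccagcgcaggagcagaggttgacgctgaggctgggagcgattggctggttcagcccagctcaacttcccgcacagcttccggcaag

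Aligned from end to end, the windows were identical at 171 bases, 49.1% of the alignment, and every pair among the 5 genes of subfamily 4F with a window lay between 45.5% and 51.3%. The core occurred once in the Cyp4f1 window, 72 bases before the start, and at 2 places in the Cyp4f6 window, 233 and 247 bases before it. It was found in 29.7% of all 33469 windows and in 16 of the 53 P450 genes with a window (30.2%). A match is a description of the letters and not a site.

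**Figure D4:**
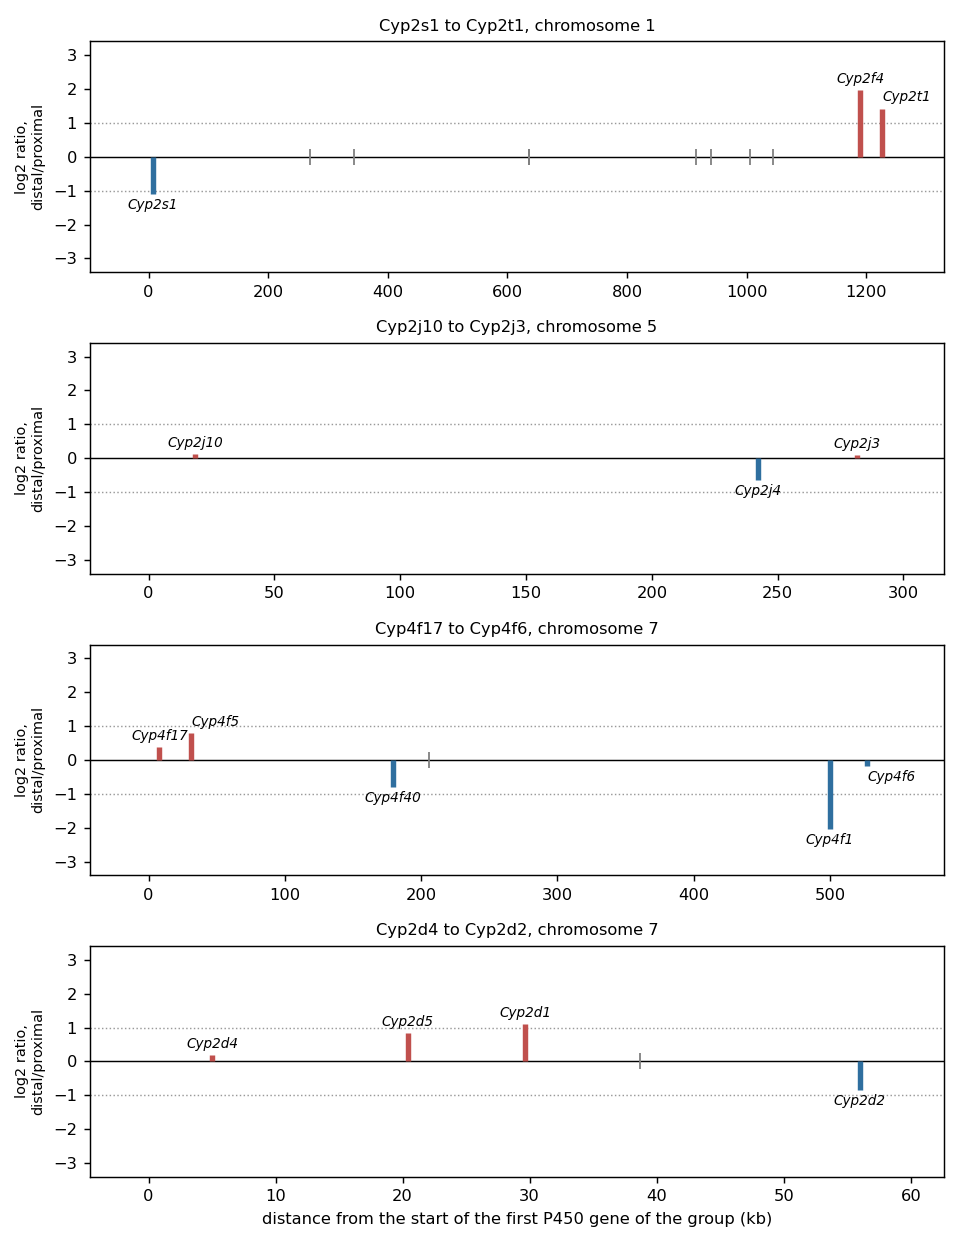
Log2 ratio of distal over proximal on the (FPKM + 1) scale for measured P450 genes (bars) in the 4 chromosomal groups with at least 3 measured members, placed by distance from the first gene. Red bars are higher in distal crypts and blue bars in proximal crypts, grey ticks are P450 genes below 1 FPKM (Cyp2b3, Cyp2b12, Cyp2b15 and Cyp2b21 share a locus in the table and so a tick), and the dotted lines mark 2-fold.

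The remaining genes of family 4 were low. Cyp4v3, a fatty acid hydroxylase, stood at 2.87 FPKM in distal crypts and 2.86 FPKM in proximal crypts, a log2 ratio of 0.005 that turned to -0.07 and -0.12 under the 2 rescalings. Its implied 95% interval, 0.495 to 2.04 in fold, leaves room for a 2-fold difference. Cyp4x1 was at 0.611 FPKM in distal crypts and 0.241 FPKM in proximal crypts. The 4 genes of subfamily 4A, targets of the lipid sensor PPAR alpha in rat liver, summed to 0.0370 FPKM in distal crypts and 0.127 FPKM in proximal crypts, with Cyp4a2 and Cyp4a3 listed at 0 in both.

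In subfamily 3A, Cyp3a9 was 1.89-fold higher in distal crypts, just short of 2-fold, at 82.1 FPKM in distal crypts and 43.4 FPKM in proximal crypts. The authors' deposited table called Cyp3a9, with a log2 value of 0.92, 0.30 as the implied standard error and 0.0374 as the q. Cyp3a18 was low, at 1.38 FPKM in distal crypts and 1.06 FPKM in proximal crypts. Cyp3a2 and Cyp3a23/3a1, major drug-oxidising P450s of rat liver, were listed at 0 in both libraries. The Cyp3a9 window, shown because this gene leads the distal library, held none of the motifs searched, and is printed in lower case throughout.
Cyp3a9, chr12:21960111-21960410, minus strand, GRCr8: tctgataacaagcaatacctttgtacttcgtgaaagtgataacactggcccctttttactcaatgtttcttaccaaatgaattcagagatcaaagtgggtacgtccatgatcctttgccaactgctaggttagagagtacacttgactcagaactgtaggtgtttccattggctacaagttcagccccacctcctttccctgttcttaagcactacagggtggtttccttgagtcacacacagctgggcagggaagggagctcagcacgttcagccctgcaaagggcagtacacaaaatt

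In subfamily 2D, drug-oxidising enzymes of rat liver and gut, all 5 genes were above 0 in both libraries, and the 4 measured ones did not all lie on the same side. Cyp2d1 stood at 32.8 FPKM in distal crypts and 14.8 FPKM in proximal crypts (2.22-fold). For Cyp2d1 the authors' deposited table listed 1.15 as log2 of distal over proximal, with 0.38 as the implied standard error and 0.0467 as the q. Its log2 ratio of 1.10 fell just under 2-fold, to 0.9996 and 0.93, under the rescalings of the distal library. Cyp2d5 was at 4.88 FPKM in distal crypts and 2.30 FPKM in proximal crypts (2.12-fold, but under 2-fold on the (FPKM + 1) scale). Cyp2d3 was below 1 FPKM, at 0.793 FPKM in distal crypts and 0.376 FPKM in proximal crypts, so no direction is read for it. Neither Cyp2d5 nor Cyp2d3 was called. Cyp2d2 was lower in distal crypts, at 4.10 FPKM, against 8.10 FPKM in proximal crypts (1.98-fold), with a q of 0.518 in the authors' deposited table, and Cyp2d4 stood at 9.46 FPKM in distal crypts and 8.13 FPKM in proximal crypts.

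The 5 genes lie within 58.0 kb of chromosome 7 (120742273 to 120800279, rn4). Reads of similar copies can be split between genes in the counting. How alike the 2D transcripts are was not measured here, so the split of the signal among the 2D genes is uncertain. Their promoter windows from RefSeq on GRCr8 were compared: Cyp2d1 and Cyp2d3 were identical over 88.5% of the alignment and Cyp2d1 and Cyp2d5 over 73.7%, while Cyp2d1 and Cyp2d2 shared 48.6%. The windows of Cyp2d1, Cyp2d5 and Cyp2d2 are shown because the first pair was higher in distal crypts and the last was not. Capitals mark TATAAA in either orientation.
Cyp2d1, chr7:115793381-115793680, minus strand: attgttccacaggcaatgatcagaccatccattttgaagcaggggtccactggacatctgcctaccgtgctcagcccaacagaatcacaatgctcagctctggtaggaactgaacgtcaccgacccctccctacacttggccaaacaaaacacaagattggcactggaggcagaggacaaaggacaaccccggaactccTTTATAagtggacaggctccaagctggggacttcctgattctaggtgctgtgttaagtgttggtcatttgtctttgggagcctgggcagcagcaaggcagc
Cyp2d5, chr7:115784438-115784737, minus strand: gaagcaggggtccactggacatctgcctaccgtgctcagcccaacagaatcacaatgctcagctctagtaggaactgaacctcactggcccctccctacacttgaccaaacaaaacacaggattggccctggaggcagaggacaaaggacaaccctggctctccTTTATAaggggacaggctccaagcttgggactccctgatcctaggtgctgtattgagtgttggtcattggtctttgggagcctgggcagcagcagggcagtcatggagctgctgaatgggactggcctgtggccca
Cyp2d2, chr7:115819232-115819531, minus strand: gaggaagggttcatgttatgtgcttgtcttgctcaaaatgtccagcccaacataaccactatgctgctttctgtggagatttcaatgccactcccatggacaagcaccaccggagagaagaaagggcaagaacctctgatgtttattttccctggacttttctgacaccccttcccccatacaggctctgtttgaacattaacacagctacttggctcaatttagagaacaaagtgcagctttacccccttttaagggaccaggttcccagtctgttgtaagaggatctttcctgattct

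The reverse complement of TATAAA stood 51 bases before the annotated start of Cyp2d1 and 86 bases before that of Cyp2d5, which goes with the shift between these windows. TATAAA was not in the Cyp2d2 window in either orientation. TATAAA was in 14.2% of all windows, in 15 of 53 P450 windows and in 3 of the 23 windows of measured P450 genes. The nuclear receptor half-site AGGTCA was in 16.2% of all windows, in 19 of 53 P450 windows and in 6 of the 23 measured ones. The HNF4 motif CAAAGTCCA was in 0.391% of all windows and in 1 of 53 P450 windows. None of the 6 windows printed here held AGGTCA or CAAAGTCCA.

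Another group of family 2 genes on chromosome 1, from Cyp2s1 to Cyp2t1 (81008464 to 82240355, rn4), held 13 P450 genes, of which 8 were listed at 0 in both libraries. The 3 measured genes were all at least 2-fold apart, beside 7.62% of all measured genes. Cyp2f4, which in rat lung activates naphthalene, had the largest fold among the measured P450 genes, at 4.19 FPKM in distal crypts and 0.327 FPKM in proximal crypts (12.8-fold). For Cyp2f4 the authors' deposited table listed 3.68 as log2 of distal over proximal, with 0.80 as the implied standard error and 0.000245 as the q. Cyp2t1, 24.95 kb away, stood at 44.3 FPKM in distal crypts and 15.9 FPKM in proximal crypts (2.78-fold), with a q of 0.0830 in the authors' deposited table. Cyp2t1 shares its locus in the table with Egln2, an oxygen-sensing hydroxylase gene at 55.2 FPKM in distal crypts and 42.2 FPKM in proximal crypts, and its value can hold reads of that gene. Cyp2s1, known from human and mouse epithelia and placed at the other end of the group, was lower in distal crypts, at 0.780 FPKM, against 2.78 FPKM in proximal crypts (3.56-fold), with a q of 0.0822 in the authors' deposited table.

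The epoxygenases of subfamily 2J, which turn arachidonic acid into epoxides, were less than 2-fold apart, and Cyp2j4 and Cyp2j3 stood far above Cyp2j10. Cyp2j4, known as abundant in rat small intestine, stood at 28.5 FPKM in distal crypts and 45.3 FPKM in proximal crypts (1.59-fold higher in proximal crypts, implied 95% interval 0.421 to 0.944 for distal over proximal). Cyp2j3, 14.6 kb from it, was at 26.3 FPKM in distal crypts and 24.4 FPKM in proximal crypts, a log2 ratio of 0.10 that became -0.06 with equal upper quartiles. Cyp2j10 was at 1.29 FPKM in distal crypts and 1.11 FPKM in proximal crypts. Cyp2u1, a fatty acid hydroxylase, stood at 4.48 FPKM in distal crypts and 5.90 FPKM in proximal crypts. Cyp2r1, a vitamin D 25-hydroxylase, was at 1.39 FPKM in distal crypts and 0.665 FPKM in proximal crypts, 2.09-fold (under 2-fold on the (FPKM + 1) scale) with an implied 95% interval of 0.655 to 6.66. None of these 5 was called in the authors' deposited table.

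Several P450 subfamilies known from liver were at or near 0. All 7 genes of subfamily 2C and all 3 of subfamily 2A were listed at 0 in both libraries, as were 4 of 6 genes of subfamily 2B. Cyp2b1 was at 0 FPKM in distal crypts and 0.457 FPKM in proximal crypts. Cyp2e1, the ethanol-oxidising P450, was at 0.0461 FPKM in distal crypts and 0 FPKM in proximal crypts. In family 1, Cyp1a1, the best known AHR target, stood at 0.0569 FPKM in distal crypts and 0.237 FPKM in proximal crypts, and Cyp1a2 and Cyp1b1 were listed at 0 in both. The P450 genes whose deposited p-value was that of a single read stood at up to 0.0491 FPKM in distal crypts (2 genes) and at 0.0328 FPKM in proximal crypts (1 gene), and 3 reads of such genes at 0.147 FPKM in distal crypts and 0.0983 FPKM in proximal crypts. What a read is worth depends on the length of the transcript, so these are examples and no limit for the other genes. The handling of reads from near-identical copies is not stated in the labels, and a value of 0 does not show that the gene is silent.

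Among the steroid-forming P450s, 2 low genes lay on opposite sides. Cyp17a1, the 17 alpha-hydroxylase of androgen synthesis, stood at 2.15 FPKM in distal crypts and 0.254 FPKM in proximal crypts (8.49-fold). For Cyp17a1 the authors' deposited table listed 3.09 as log2 of distal over proximal, with 0.82 as the implied standard error and 0.00565 as the q. Cyp11a1, which cleaves the cholesterol side chain in the first step of steroid synthesis, was lower in distal crypts, at 0.316 FPKM, against 2.06 FPKM in proximal crypts (6.52-fold). For Cyp11a1 that deposited table listed -2.71, with 0.81 as the implied standard error and 0.0191 as the q. The summed markers of lymphocytes and mast cells given above were also lower in distal crypts, and the part of these cells in the Cyp11a1 value was not tested. Cyp11b1 and Cyp11b3, of the last steps of corticoid synthesis, and the aromatase gene Cyp19a1 were listed at 0 in both libraries. Cyp11b2 was at 0 FPKM in distal crypts and 0.0328 FPKM in proximal crypts. Cyp21a1, which shares its locus with other genes, was at 0.0811 FPKM in distal crypts and 0 FPKM in proximal crypts.

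The measured sterol and bile acid P450s were less than 2-fold apart. Cyp27a1, the mitochondrial sterol 27-hydroxylase, stood at 25.2 FPKM in distal crypts and 29.2 FPKM in proximal crypts, with an implied 95% interval of 0.558 to 1.33 in fold. Cyp8b1, which sets the amount of cholic acid, was at 3.10 FPKM in distal crypts and 4.31 FPKM in proximal crypts. Cyp7a1, the rate-limiting enzyme of bile acid synthesis, and Cyp7b1 were listed at 0 in both libraries. Cyp39a1, an oxysterol hydroxylase, stood at 0.222 FPKM in distal crypts and 0.593 FPKM in proximal crypts, and Cyp46a1, the cholesterol 24-hydroxylase of brain, at 0.130 FPKM in distal crypts and 0 FPKM in proximal crypts. The retinoic acid hydroxylases were close to 0, with Cyp26b1 at 0.0861 FPKM in distal crypts and 0.164 FPKM in proximal crypts and Cyp26a1 at 0.0491 FPKM in distal crypts and listed at 0 in proximal crypts. Cyp20a1, an orphan P450, was at 12.2 FPKM in distal crypts and 11.9 FPKM in proximal crypts, and its log2 ratio of 0.03 became -0.06 and -0.13 under the rescalings.

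**Figure D5:**
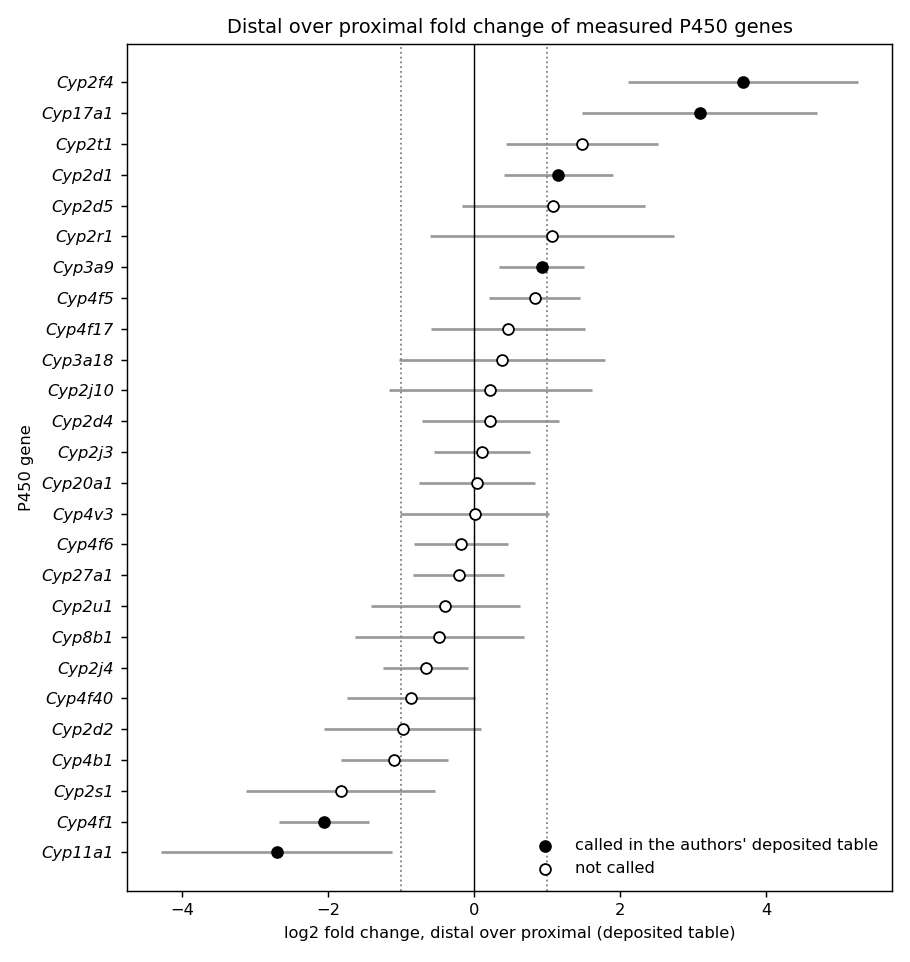
Log2 fold change of distal over proximal in the authors' deposited table for the 26 measured P450 genes, with the 95% interval implied by its test statistic as a line. Filled points are the 6 genes called there, the dotted lines mark 2-fold, and Cyp2f4 (3.68) and Cyp11a1 (-2.71) are the ends of the range.

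At the 2-fold limit of the (FPKM + 1) scale, Cyp4b1 and Cyp2s1 lay just inside, with log2 ratios of -1.04 and -1.09. Cyp3a9 and Cyp2d2 lay just outside, with 0.90 and -0.84. The implied standard errors of the measured genes ranged from 0.30 to 0.85 on the log2 scale, with a median of 0.52. The implied 95% interval excluded equality for 11 of the 26 genes and lay wholly within 2-fold for 4. These intervals are not corrected for the number of genes, and the authors' deposited table called only 6. The matching shares of all measured genes were not computed, so nothing particular to the P450 genes is read from these counts.

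Of 18 measured genes that provide electrons to P450 enzymes or handle haem, 0 were at least 2-fold apart on the (FPKM + 1) scale, beside 7.62% of all measured genes, and 0 were called in the authors' deposited table, beside 5.44%. With so few genes these counts are near the shares of all genes. Hmox1, the haem oxygenase that breaks haem down, was 2.09-fold higher in distal crypts without the added 1, at 2.80 FPKM in distal crypts and 1.34 FPKM in proximal crypts. The list had a median log2 ratio of 0.15 that became -0.02 with equal upper quartiles. Por, the reductase that feeds the microsomal P450s, stood at 55.8 FPKM in distal crypts and 40.6 FPKM in proximal crypts. Fdx1, the ferredoxin of the mitochondrial P450s, was at 37.8 FPKM in distal crypts and 36.5 FPKM in proximal crypts.

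Among 17 measured transcription factors that control P450 genes, Ppara was the only one at least 2-fold apart, a share near that of all genes, being 3.12-fold higher in proximal crypts at 4.33 FPKM in distal crypts and 13.5 FPKM in proximal crypts. For Ppara the authors' deposited table gave a q of 0.0131. The list had a median log2 ratio of -0.26. The xenobiotic receptors Nr1i2 (PXR) and Nr1i3 (CAR) stood at 52.4 and 7.34 FPKM in distal crypts, against 51.1 and 5.10 FPKM in proximal crypts. Ahr was at 8.56 FPKM in distal crypts and 12.2 FPKM in proximal crypts, and Hnf4a at 204.8 FPKM in distal crypts and 166.5 FPKM in proximal crypts. The 5 measured AHR-responsive genes outside the P450 family had a median log2 ratio of -0.45 (0.03 over 6 genes with no minimum). Of these, 1 was higher by 2-fold or more in distal crypts and 1 in proximal crypts, beside 3.71% and 3.91% of all measured genes. Ahrr, a repressor of AHR signalling, was lower in distal crypts (0.259 FPKM, against 1.64 FPKM in proximal crypts). Ugt1a6, which shares its locus with other genes, was higher (138.8 FPKM in distal crypts, against 46.2 FPKM in proximal crypts) and was not called in the authors' deposited table.

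In the pathways around the P450 enzymes, 1 of 12 measured eicosanoid genes was at least 2-fold apart, also a share near that of all genes, with a median log2 ratio of 0.25. It was Ptgis, the prostacyclin synthase and itself a P450 by structure though not by symbol, at 9.27 FPKM in distal crypts and 1.74 FPKM in proximal crypts (5.33-fold, q of 0.0110 in the authors' deposited table). Tbxas1, the thromboxane synthase of the same kind, was at 15.7 FPKM in distal crypts and 13.3 FPKM in proximal crypts. Of 11 measured retinoid genes, 1 was higher by 2-fold or more in distal crypts and 1 in proximal crypts, beside 3.71% and 3.91% of all measured genes. Crabp2, a retinoic acid carrier, was higher in distal crypts (5.02 FPKM, against 0.589 FPKM in proximal crypts). Aldh1a1, which makes retinoic acid, was lower there (13.2 FPKM, against 36.2 FPKM in proximal crypts), and the list had a median of 0.15. The 9 measured steroid and bile acid genes had a median of -0.28. Of these, 2 were higher by 2-fold or more in proximal crypts and 0 in distal crypts, beside 3.91% and 3.71% of all measured genes. The first was Hsd3b1, of the step after Cyp11a1, at 0.807 FPKM in distal crypts and 4.38 FPKM in proximal crypts. The other was Fabp6, an ileal bile acid carrier, at 1.78 FPKM in distal crypts and 6.80 FPKM in proximal crypts. Hsd3b1 overlaps another gene at the same locus. The authors' deposited table called Hsd3b1 and not Fabp6, and it also called the steroid 5 alpha-reductase gene Srd5a1, at 22.3 FPKM in distal crypts and 43.8 FPKM in proximal crypts.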

How the data were processed

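Messenger RNA values of 2 libraries, 1 distal and 1 proximal, each from 7 pooled rats per the labels, were used, grouped by sample title. Per the submitters' processing notes, CASAVA, TopHat2 and the build rn4 go with these samples, with no versions. No program for the table and no scaling between libraries is named in those notes. Expression values are treated as FPKM computed by the authors, judged from the deposited numbers (sums of 463561 distal and 413026 proximal). The deposited log2 fold change and test statistic are other columns of that table. The deposited p-value matches the two-sided normal tail of the statistic to within 2.76e-06, so fold change over statistic, without sign, was used as the implied standard error, and 1.96 of these as a 95% interval. No total of reads was at hand, so depth was judged from single-read values, taken as the commonest deposited p-value (0.169 distal, 0.149 proximal) among genes at 0 in the other library. A deposited q-value accounts for the authors' own 10100 tested rows.

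Of 16492 rows, 23 with a failed or low-data status and 1 repeated row were left out. Locus starts were counted from 1. The log2 ratio used a pseudocount of 1 FPKM, a minimum of 1 FPKM in 1 library and a 2-fold threshold. No test of the regions was made. Named were all measured P450 genes, those list members at least 2-fold apart, and Por, Ahr, Nr1i2, Nr1i3 and Hnf4a. Fdx1, Hmox1, Tbxas1, Cdx2, Fabp2, Rbp2 and the genes under 1 FPKM were named after their values were seen. Members and lists were chosen with earlier results of these data known. P450 genes were grouped by position where gaps were at most 1000 kb. RefSeq windows of 300 bases (GRCr8) were matched by symbol for 53 of 68 genes and aligned with Biopython 1.88 (match 1, mismatch -1, gap opening -2, extension -0.5). Counting was tested on simulated data with planted differences well beyond 2-fold and no noise. That checks the counting code only and not how the counts behave in these libraries. Tables were made with Python 3.11.15 and pandas 2.3.3.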

Additional observations from a re-analysis of the deposited data

How the results depend on the processing

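No paired analysis was possible because each region had 1 library and the result comes from no test; for the same reason no library could be left out. The count of measured P450 genes at least 2-fold higher was 4 in distal crypts and 4 in proximal crypts. It was 1 in distal and 1 in proximal crypts with a pseudocount of 5 FPKM, beside 1.99% and 1.28% of all measured genes. With a minimum of 5 FPKM, met by 16 P450 genes, it was 2 in distal and 2 in proximal crypts, beside 3.65% and 2.98%. At 1.5-fold it was 7 in distal and 7 in proximal crypts, beside 9.19% and 8.12%. At 4-fold it was 0 in distal and 1 in proximal crypts, beside 0.884% and 0.751%. By the call of the authors' deposited table it was 4 in distal and 2 in proximal crypts, beside 2.76% and 2.68%. The counts lay between 3 and 5 in distal crypts and stayed at 4 in proximal crypts under the other settings. These were a pseudocount of 0.1 FPKM, no minimum, either rescaling, and no genes sharing a locus. There the shares of all genes lay between 2.22% and 4.92% in the distal and between 2.34% and 6.27% in the proximal direction. Of 129 recomputed ratios of single P450 genes, 123 moved by less than the implied standard error. The other 6, all of Cyp2f4, Cyp17a1 and Cyp11a1 under another pseudocount, moved by more without changing sign. Much of the 123 was fixed in advance, because only another pseudocount could move a ratio that far. Leaving out genes that share a locus changes no single ratio. The rescalings shift a ratio by at most 0.17, below the smallest implied standard error of 0.30. Of 40 recomputed family sums 34, and of 162 recomputed values of gene lists 131, were close to their first value. Part of this was fixed in advance too. Leaving out genes that share a locus cannot change a family without such genes, and list counts that stayed at 0 were scored as close. The sum over family 2 depended on Cyp2t1 and on scaling. Its log2 ratio of 0.32 became 0.05 without genes sharing a locus and 0.15 with equal upper quartiles. Low depth limits the genes under 1 FPKM, for which no direction is read.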
